A study of Mus musculus with 4 samples.

Results

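The endothelial cells of the mouse dorsal root ganglion (DRG) were selected on the measured transcripts of 3 genes in single cell RNA-seq libraries. A barcode, which stands for 1 cell, was kept with 600 to 15000 unique molecular identifiers (UMIs, 1 per captured RNA molecule), 500 to 4000 genes and less than 10% mitochondrial UMIs. It was counted as endothelial with at least 4 UMIs of *Pecam1*, *Cldn5* and *Cdh5* together, at most 4 UMIs of *C1qa*, *C1qb* and *C1qc* together and at most 1 of *Ptprc*, the last limits keeping out macrophages and other leukocytes. Of 6975 deposited barcodes 6095 passed the filter, and 434 of these passed the gate. The mice were C57BL/6, with no mutant allele or transgene named in the labels, and 8 to 12 weeks old. Control libraries 1 and 2 came from uninjured L4 ganglia, and injury libraries 1 and 2 from L4 ganglia taken 3 days after sciatic nerve crush. The paper names L4 and L5 ganglia, where the labels name L4 alone. All 4 libraries shared the enzymatic dissociation with papain and collagenase and a sort for live cells, so each value describes cells that survived both. The labels number only 1 library of each condition, as 2, and the other is called 1 here. The gate held 50 and 172 cells in control libraries 1 and 2 and 114 and 98 cells in injury libraries 1 and 2. Their summed UMIs were 209674, 909282, 475728 and 573738 in that order, and the median gated cell had 3813.5, 4781.5, 3553.5 and 5396 UMIs.

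Endothelial cells line blood and lymphatic vessels. In peripheral nerve, the capillaries within the endoneurium form a blood-nerve barrier, with sealed junctions between the cells and carriers that pass selected nutrients, whereas the vessels of the ganglion around the neuronal somata are known to be leakier. Along the vascular tree the cells differ from arteries through capillaries to veins, and lymphatic vessels carry a set of genes of their own.

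Several features of the libraries bear on every value. Control 1 gave the fewest gated cells and the fewest UMIs. Between 1 and 6 barcodes were shared by any pair of libraries, and 0 of the shared barcodes were gated in both. The doublet caller Scrublet marked 37 of the 6975 barcodes (0.530%), 9 of them in the gate. A further check on the gated cells counted 3 or more UMIs of a pair of defining genes of another cell type. It found 19 cells for *Fabp7* and *Kcnj10* (satellite glial cells, SGC), 16 for *Dcn* and *Lum* (fibroblasts), 18 for *Rgs5* and *Acta2* (mural cells) and 0 for *Isl1* and *Prph* (neurons). In all, with a Schwann cell pair counted too, 60 gated cells were marked by either method, 2 and 30 in control libraries 1 and 2 and 10 and 18 in injury libraries 1 and 2. They are called mixed barcodes here and were kept, and values without them are given for several results below. A single gated cell of control 2 held 447 hemoglobin UMIs, where the next highest held 4.

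The gate genes chose the cells, so their values are a description. *Cldn5* encodes claudin-5, a tight junction protein, *Pecam1* the adhesion molecule CD31 and *Cdh5* the adherens junction protein VE-cadherin. *Cldn5* UMIs were found in 96.5% of the gated cells, *Pecam1* UMIs in 85.5% and *Cdh5* UMIs in 79.3%, and 288 cells (66.4%) held all 3. The summed gate count had a median of 16 UMIs, and 314 cells had more than 10. Few cells lay near the threshold. Among the filtered cells within the limits on C1q and *Ptprc*, 39 had 2 gate UMIs and 19 had 3, just outside. Just inside were 13 with 4 and 19 with 5. A list of 30 endothelial identity genes that the gate did not use stood at 16104 CPM (UMIs of the summed cells scaled to a common total of 1e6) in the cells with 4 or 5 gate UMIs. It stood at 6289 CPM in those with 2 or 3, at 20686 in those with 6 or more and at 919 in those with 0 or 1. All of these cells were within the same limits. The limits on C1q and *Ptprc* removed 7 cells.

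**Figure D1:**
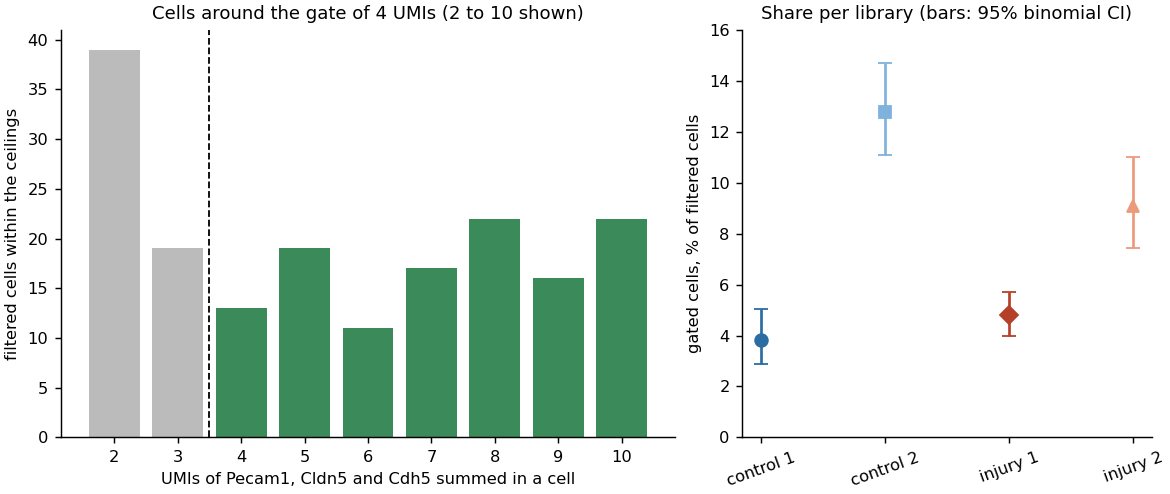
Left, filtered cells within the limits on C1q and *Ptprc* (y axis, number) by the UMIs of the gate genes summed in a cell (x axis), from 2 to 10, with cells outside the gate in grey and the threshold dashed. Right, gated cells as a percentage of the filtered cells of each library, with 95% binomial confidence intervals: control 2 lies highest at 12.8% and control 1 lowest at 3.84%, on either side of the injury libraries.

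The label was checked against endothelial markers outside the gate. All 30 genes of the identity list were higher in the gated cells than in the other 5661 filtered cells in each of the 4 libraries, 29 of them at least 4-fold by the mean over libraries. Paired over 4 libraries, a two-sided exact test cannot give a p below 0.125, so these contrasts are given as values. *Flt1*, a receptor of vascular endothelial growth factor (VEGF), was at 1235 and 1122 CPM in control libraries 1 and 2 and at 1036 and 1002 CPM in injury libraries 1 and 2, or 1099 ± 104 CPM (SD, n = 4 libraries), against 9.20 in the other cells, and 93.1% of the gated cells had a UMI of it against 1.24% of the others. *Kdr*, the main signalling VEGF receptor, was at 267 ± 42.1 CPM against 3.94. The angiopoietin receptor *Tek* was at 148 and 90.2 CPM in control and 79.9 and 101 CPM in injury libraries against 1.83, and the related orphan receptor *Tie1* at 159 ± 30.1 against 1.89. *Emcn*, the surface sialomucin endomucin, stood at 1182 ± 53.3 CPM and 74.5-fold above the other cells, with the folds of single libraries from 62.8 upwards. *Sox17*, a transcription factor of vascular and above all arterial cells, was at 622 ± 104 CPM against 3.43. The member with the smallest contrast was *Ramp2*, a receptor component for adrenomedullin, at 2.55-fold, as 38.6% of the other cells also had a UMI of it. At equal depth the contrasts remained. For this, cells with at least 1000 UMIs were thinned to 1000, and 13 of the other filtered cells, below that depth, were left out. A *Flt1* UMI was then expected in 62.1% of gated and 0.626% of other cells, and a *Sox17* UMI in 42.4% and 0.248%.

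**Figure D2:**
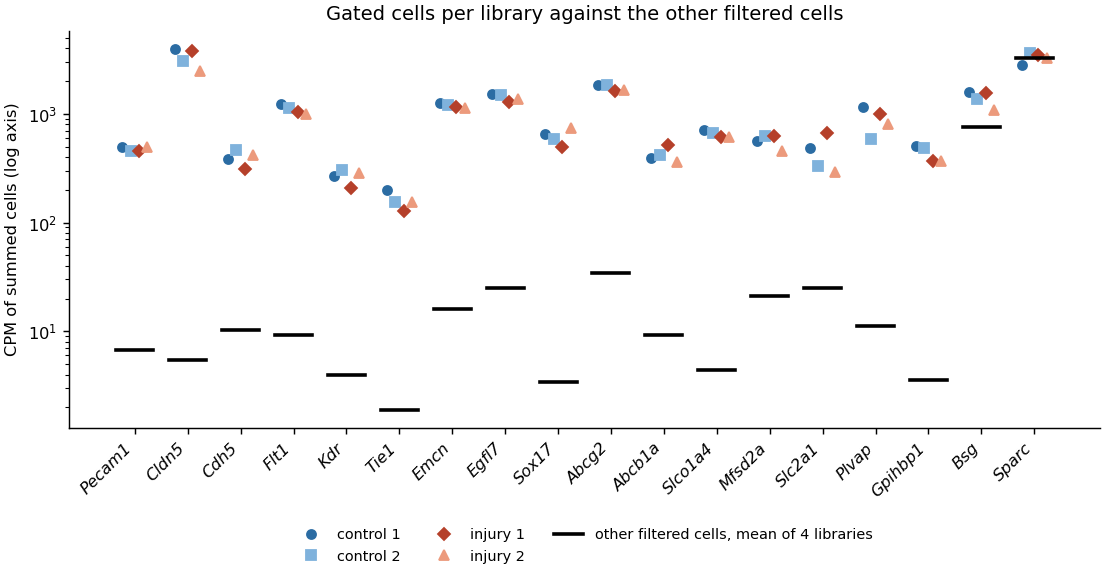
CPM of the summed gated cells in each library (points, log axis) and the mean of the other filtered cells over the 4 libraries (black bars) for gate, identity, transport and matrix genes. For most genes the points of all libraries lie more than 10-fold above the bar, whereas *Bsg* lies 1.85-fold above it and *Sparc* at 1.01-fold.

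The genes with the largest ratio to the other cells, among those with a mean of at least 100 CPM, were *Ccl21a*, *Cldn5*, *Degs2*, *Grrp1*, *Sox17*, *Slco1a4*, *Unc45b*, *Car4*, *Gm525*, *Podxl*, *Tmem252*, *Aplnr*, *Eps8l2*, *Robo4* and *Akr1c14*, 15 in all. Some are known for vascular roles, such as the guidance receptor *Robo4*, the apelin receptor *Aplnr* and the luminal sialomucin *Podxl*. *Car4*, a carbonic anhydrase anchored at the luminal surface of capillaries, was at 410 and 492 CPM in the control and 387 and 363 CPM in the injury libraries, against 2.88 in the other cells (143-fold). *Slco1a4*, an organic anion carrier of barrier vessels, was at 711 and 664 CPM in control and 610 and 617 CPM in injury libraries, or 148-fold. *Grrp1* was at 490 ± 132 CPM (212-fold) and *Degs2*, which acts in sphingolipid synthesis, at 100 ± 6.72 CPM (306-fold). *Ccl21a* differed from the rest in that 8 cells held all of its UMIs.

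ETS transcription factors such as ERG and FLI1 are known regulators of endothelial genes, and *Erg* and *Fli1* are both among the identity genes. The promoters of the genes above, from 250 bases before to 50 after the start in the RefSeq table (GRCm38.p6), were searched for an ETS core spelled CAGGAA or CCGGAA on either strand. The table held 12 of the 15 genes, and 9 of these 12 promoters (75.0%) had a match, against 41.4% of all 32851 promoters of the same length. A match is a description of the letters, and no test was made. The promoters of *Grrp1* (chr4:134254057-134254356, minus strand, 3 matches), *Car4* (chr11:84957504-84957803, plus strand, 2 matches that overlap on opposite strands) and *Robo4* (chr9:37401722-37402021, plus strand, 1 match) are shown as examples, with that of the gate gene *Cldn5* (chr16:18776597-18776896, plus strand), which has 0. Capitals mark the matches.
Grrp1: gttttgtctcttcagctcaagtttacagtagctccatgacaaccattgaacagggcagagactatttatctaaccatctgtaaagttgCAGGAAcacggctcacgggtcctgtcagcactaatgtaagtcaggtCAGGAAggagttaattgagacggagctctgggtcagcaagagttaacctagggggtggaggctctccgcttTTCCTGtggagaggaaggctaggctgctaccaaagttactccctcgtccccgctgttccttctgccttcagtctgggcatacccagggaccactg
Car4: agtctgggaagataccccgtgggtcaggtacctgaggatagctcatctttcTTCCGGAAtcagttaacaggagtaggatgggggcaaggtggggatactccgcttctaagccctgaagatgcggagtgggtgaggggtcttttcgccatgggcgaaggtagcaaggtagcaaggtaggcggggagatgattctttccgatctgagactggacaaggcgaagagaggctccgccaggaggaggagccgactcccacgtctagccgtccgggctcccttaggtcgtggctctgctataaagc
Robo4: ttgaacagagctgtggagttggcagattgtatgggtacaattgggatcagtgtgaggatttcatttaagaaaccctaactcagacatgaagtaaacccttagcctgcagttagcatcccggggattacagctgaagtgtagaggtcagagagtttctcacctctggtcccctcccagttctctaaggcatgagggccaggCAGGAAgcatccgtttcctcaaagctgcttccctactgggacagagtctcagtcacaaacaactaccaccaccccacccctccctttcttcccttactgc
Cldn5: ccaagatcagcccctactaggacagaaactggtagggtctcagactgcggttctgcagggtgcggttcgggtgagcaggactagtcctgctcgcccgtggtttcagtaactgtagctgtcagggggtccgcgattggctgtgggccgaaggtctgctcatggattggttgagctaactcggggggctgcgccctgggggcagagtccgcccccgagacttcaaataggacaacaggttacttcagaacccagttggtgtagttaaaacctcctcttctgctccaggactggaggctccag

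Of 36 junction and transport genes, with the gate genes *Cldn5* and *Cdh5* left out, 32 were higher in the gated cells by their mean, 28 of them in every library, and 27 at least 4-fold. The share of all genes that were higher in the gated cells is not given here. This count and the other list counts against the other cells therefore describe the lists alone. Among junction genes, *Jam2* stood 6.73-fold and *Tjp1*, a scaffold of tight junctions, 10.9-fold above the other cells, while *Lsr*, found where 3 cells meet, was at 124 and 143 CPM in control and 160 and 115 CPM in injury libraries (13.3-fold). *Cgn*, for the junction protein cingulin, had 0 UMIs in the gated cells. The efflux pumps that keep drugs out of nervous tissue were present. *Abcg2* was at 1827 and 1821 CPM in control and 1631 and 1652 CPM in injury libraries, 49.9-fold above the other cells, and *Abcb1a* at 391, 414, 519 and 357 CPM in the same order, 45.1-fold. By CPM the conditions overlapped for *Abcb1a* and not for *Abcg2*, whose injury values were the lower ones, as for 19.3% of all genes tested. In the edgeR fit described below, the log2 difference of *Abcg2* between injury and control was -0.07 (SE 0.26). *Slc7a5*, the carrier of large neutral amino acids, was at 497 ± 34.3 CPM (59.6-fold) and *Mfsd2a*, which carries lysophospholipids, at 567 ± 81.5 CPM (26.8-fold). *Slc2a1*, the glucose carrier GLUT1, was at 486 and 329 CPM in control and 662 and 289 CPM in injury libraries, and 50.7% of the gated cells had a UMI of it. *Plvap*, which builds the diaphragms of fenestrae and caveolae in permeable vessels, was at 1154 and 584 CPM in control and 1005 and 809 CPM in injury libraries, with a UMI in 69.4% of cells. For both genes the conditions overlapped.

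Of 45 genes of growth factor receptors and vessel growth 34 were higher in the gated cells and 23 at least 4-fold. *Eng*, a co-receptor of the TGF-beta family, was at 498 ± 66.8 CPM (33.7-fold), its partner *Acvrl1* at 235 ± 51.7 (11.3-fold) and the sphingosine phosphate receptor *S1pr1* at 212 ± 41.3 (16.7-fold). *Igfbp7*, a secreted binding protein, was found in 100% of the gated cells, yet 41.2% of the other cells also had a UMI of it. Vasoactive genes were higher in 19 of 26 cases. They included the endothelin gene *Edn1* (53.9 ± 32.7 CPM, 51.6-fold), the calcitonin receptor-like receptor *Calcrl* (98.9 ± 30.1 CPM, 17.4-fold) and *Nos3*, for endothelial nitric oxide synthase, which was at 22.2 ± 5.75 CPM from 47 UMIs. Genes of lipid uptake were divided. *Gpihbp1*, which moves lipoprotein lipase to the capillary lumen, was at 428 ± 72.9 CPM (120-fold), and the HDL receptor *Scarb1* at 577 ± 77.0 CPM (15.6-fold), but the lipase gene *Lpl* itself was at 3.64 ± 3.17 CPM, under its 50.4 in the other cells, and the fatty acid receptor *Cd36* had 11 UMIs in all. Of 42 basement membrane and matrix genes 21 were higher and 4 at least 4-fold. *Sparc*, a secreted matrix protein, was at 3283 ± 355 CPM in gated and 3256 CPM in other cells, and the type IV collagen genes *Col4a1* and *Col4a2* were 2.44-fold and 3.11-fold above them.

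Adhesion molecules for leukocytes fell into resting and activated sets. *Icam2*, present on resting endothelium, was at 195 ± 24.7 CPM (38.6-fold). The activation markers were low or patchy: *Sele* had 12 UMIs in all 434 cells, *Selp* 22 and *Ackr1*, a chemokine carrier of venules, 29. *Icam1* was at 41.4 ± 8.68 CPM, 1.05-fold the level of the other cells, and *Vcam1* at 94.0 ± 92.1 CPM, a spread that came from injury 2 at 232 CPM against 57.2 and 42.9 in control and 44.1 in injury 1.

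The gated cells divided by *Slc2a1* and *Plvap*. A UMI of *Slc2a1* alone was found in 103 cells (23.7%), of *Plvap* alone in 184 (42.4%), of both in 117 (27.0%) and of neither in 30 (6.91%). The median depths of the first pair of groups were nearly equal, at 4502 and 4482.5 UMIs, while cells with both had 5105 and cells with neither 3434, and the part of depth in the overlap was not tested. By library there were 14 and 43 *Slc2a1*-only cells in control and 26 and 20 in injury libraries, and 23 and 75 *Plvap*-only cells against 38 and 48.

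These cell groups were then compared for the genes of vessel type, transport and lipid uptake, as a description with no test, since the groups were formed from the same cells. The share of all genes higher in either group is not given here, so the counts describe the lists alone. Of 16 arterial genes with enough UMIs 15 were higher in the *Slc2a1*-only cells, 10 of them in 4 of 4 libraries. *Mgp*, an inhibitor of calcification, was the exception at 125 CPM against 254 in *Plvap*-only cells, and *Efnb2* and *Sox17* were higher in 1 and 2 of the 4 libraries. *Hey1*, a target of Notch signalling, was at 180 CPM against 33.4 in *Plvap*-only cells, *Bmx*, an arterial kinase, at 142 against 31.2, *Gja4*, a gap junction gene, at 188 against 44.1 and *Edn1* at 131 against 25.8, each in 4 of 4 libraries. Of 25 junction and transport genes, gate genes left out, 19 were higher there, 12 of them in 4 of 4 libraries. The thyroid hormone carrier *Slco1c1* had 47 UMIs against 1, *Lsr* was 3.09-fold, *Bsg*, which escorts lactate carriers, 2.62-fold and *Mfsd2a* 2.15-fold higher, and so was *Cldn5*, one of the gate genes, at 5846 against 1927 CPM. *Glul*, for glutamine synthetase, was at 4051 against 1017 CPM. All 13 venous genes were higher in the *Plvap*-only cells, 8 of them in 4 of 4 libraries. Capillary genes were divided, with 8 of 12 higher in the *Plvap*-only cells and 4, *Cxcl12*, *Mfsd2a*, *Itga1* and *Spock2*, higher in the *Slc2a1*-only cells of all 4 libraries. The water channel *Aqp1* was at 405 CPM against 10.6 (38.2-fold), *Nr2f2*, a transcription factor of venous fate, at 117 against 8.47 (13.9-fold), *Ptgs1* at 71.0 against 8.47 (8.39-fold), *Gpihbp1* at 638 against 76.2 (8.37-fold), *Lrg1* at 471 against 95.3 (4.95-fold) and *Rbp7* at 424 against 123 (3.45-fold), again in all 4 libraries. *Ackr1* had 25 UMIs there against 0. Some genes did not divide. The pump *Abcg2* was at 1804 and 1743 CPM, *Cdh5* at 417 and 403 and *Itm2a* at 1311 and 1306.

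**Figure D3:**
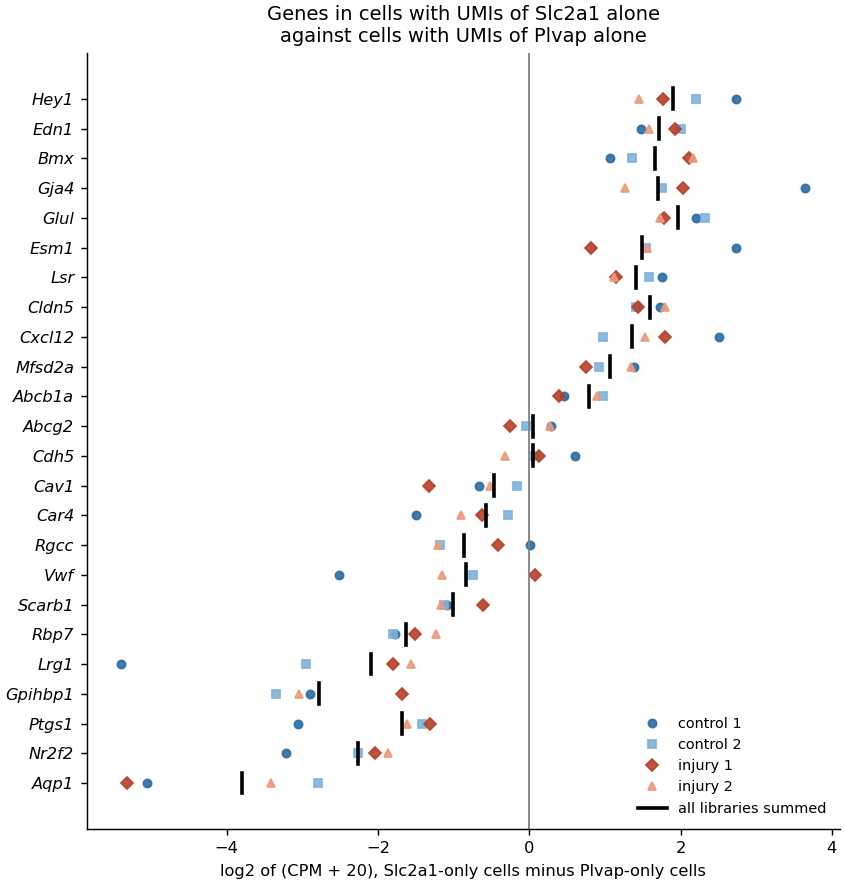
For each gene (y axis), the log2 difference of CPM + 20 between cells with UMIs of *Slc2a1* alone and cells with UMIs of *Plvap* alone (x axis), per library (points) and over all libraries summed (black bars). The arterial gene *Hey1* and the glutamine synthetase gene *Glul* lie right of 0 in all 4 libraries. *Abcg2* and *Cdh5* lie near 0, and *Gpihbp1*, *Nr2f2* and *Aqp1* lie left in all 4.

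Graph-based clustering of the gated cells alone gave 6 clusters, which served only to describe how the cells vary. Cluster 1 (111 cells) was led by *Nebl*, *Slc2a1*, *Esm1*, *Paqr5* and *Plat*. In it 12 of 18 measured arterial genes were at least 2-fold above the rest, among them *Gja4*, *Hey1*, *Bmx*, *Edn1* and *Vegfc*. Cluster 4 (67 cells) was led by hemoglobin genes, which came from the single cell named above. Without that cell its leading genes were *Vcam1*, *Aqp1*, *Fabp4*, *Ptgs1* and *Slco2a1*, and in the cluster as a whole 15 of 17 venous genes were at least 2-fold above the rest, including *Nr2f2*, *Vwf*, *Lrg1* and *Selp*. So were 12 of 24 genes of the S and G2M phases. A single cell held 7 of the 9 *Top2a* UMIs of this cluster, and a single cell held 8 of the 9 of *Ccna2*. *Slc2a1* was at 964 CPM in cluster 1 and 33.0 in cluster 4, and *Plvap* at 257 and 1142. In clusters 2 (107 cells) and 3 (94 cells) *Slc2a1* was at 211 and 455 CPM, *Plvap* at 1136 and 985, *Car4* at 692 and 726 and *Gpihbp1* at 585 and 478. Cluster 2 was led by *Cd74*, *Cxcl10*, *H2-Ab1*, *Gbp2* and *2700046A07Rik*. For *Cd74*, *Cxcl10*, *H2-Ab1* and *Gbp2*, a few cells held many of the UMIs. Of its 277 *Cd74* UMIs 1 cell held 96 and another 72, of its 120 *Gbp2* UMIs 1 cell held 43 and another 36, and 20.6% of its cells had a *Cd74* UMI against 26.9% in cluster 4. Cluster 3 was led by *St5*, *Car4*, *Ypel5*, *Hoxd4* and *Ptn*. In it *Fos* was at 663 CPM against 5554 in cluster 2 and *Atf3* at 14.2 against 386. The median depth of cluster 3, 3270 UMIs, was the lowest of the 6.

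The last clusters held other transcripts. Cluster 5 (42 cells) was led by *Ccl21a*, *Apod*, *Dcn*, *Fabp7* and *Lyve1*, and 31 of its cells were mixed barcodes by the defining gene pairs. Cluster 6 (13 cells) was led by *Rgs5*, *Ifitm1*, *Ndufa4l2*, *Kcnj8* and *Vtn*, genes of pericytes or shared with them for the most part, and all 13 cells were mixed barcodes. The cells of control 1 were divided over clusters 1 to 6 as 14, 15, 10, 10, 1 and 0, those of control 2 as 39, 33, 43, 27, 23 and 7, those of injury 1 as 32, 30, 32, 11, 8 and 1, and those of injury 2 as 26, 29, 9, 19, 10 and 5. Every cluster but the last thus held cells of all 4 libraries, and the range of cluster 3 was widest within injury, from 9.18% to 28.1% of the gated cells.

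Lymphatic endothelial cells were few. With at least 3 of the 8 lymphatic genes detected, 8 cells were found, 1 and 3 in control libraries 1 and 2 and 0 and 4 in injury libraries 1 and 2. They held 2308 of the 2309 UMIs of *Ccl21a*, the chemokine that draws dendritic cells into lymphatics, all 157 UMIs of the hyaluronan receptor *Lyve1*, 106 of the 107 of *Mmrn1* and 18 of the 20 of *Prox1*, the transcription factor that sets lymphatic fate. Of 2347 *Flt1* UMIs they held 1. All 66 UMIs of *Nts*, for the peptide neurotensin, were also in these cells. As most of the genes were used to find them, these counts are a description. Of the 8 cells 5 were mixed barcodes, among them the single cell of control 1. Without mixed barcodes the lymphatic list went from 3677 to 25.5 CPM in control 1 and from 2156 to 1359 CPM in injury 2. It went from 833 to 980 CPM in control 2 and from 63.1 to 44.9 CPM in injury 1.

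Transcripts of other cell types were lower in the gated cells than in the other cells for nearly every gene. Of the lists for SGC, macrophages, mural cells, fibroblasts, neurons and leukocytes or blood, 0 genes were higher, and of 15 Schwann cell genes 1 was. The amount differed by library. The 17 SGC genes, of which *Apoe* was the most abundant, summed to 1507 and 6946 CPM in control libraries 1 and 2 and to 5514 and 2390 CPM in injury libraries 1 and 2. Without the mixed barcodes they summed to 1547, 1836, 1573 and 1775 CPM. The 15 fibroblast genes, led by *Apod*, summed to 367, 2201, 2234 and 1475 CPM with and to 368, 243, 102 and 311 without the mixed barcodes. Schwann cell genes, led by *Mbp*, stood at 234, 1157, 767 and 1014 CPM with and at 240, 398, 279 and 429 without them. Mural genes, led by *Rgs5*, stood at 148, 271, 233 and 322 CPM with and at 123, 113, 84.7 and 106 without them. Macrophage genes, led by *Lyz2*, stood at 181, 55.0, 214 and 136 CPM, with *Cx3cr1*, *Cd163* and *Fcgr1* at 0, but the gate had limited 3 genes of that list. The 14 neuron genes, led by *Sncg*, stood at 291, 465, 267 and 394 CPM, and the 19 leukocyte and blood genes, led by *Hbb-bs*, at 167, 621, 71.5 and 336, with *Cd3e*, *Trbc2* and *Ccr2* at 0. Without mixed barcodes the leukocyte and blood genes stood at 153, 132, 69.8 and 317 CPM. The libraries of a condition thus differed more in glial and fibroblast RNA than the conditions did, and the part of this RNA in the comparison of injury with control was not tested.

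**Figure D4:**
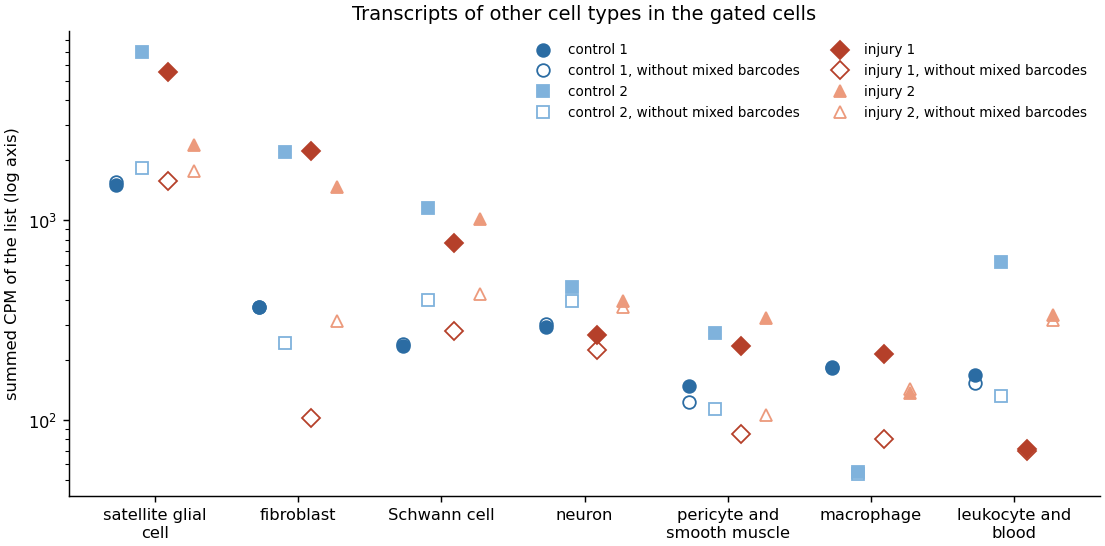
Summed CPM (log axis) of the lists for other cell types in the gated cells of each library, with all cells (filled) and without mixed barcodes (open). Control 1 is lowest for SGC, fibroblast, Schwann cell and mural lists with all cells, and for the SGC list the open symbols of all 4 libraries lie between 1547 and 1836 CPM.

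Immediate early and heat shock genes, which are known to be raised by dissociation, differed by library in the same way in both conditions. The 25 genes summed to 42595 and 20462 CPM in control libraries 1 and 2 and to 35113 and 26671 in injury libraries 1 and 2. *Fos* alone was at 7121 and 2917 CPM in control and 5932 and 3963 CPM in injury libraries. Of genes that mark dividing cells, *Mki67* gave 3 UMIs in 2 gated cells (0.461%), both in cluster 4, against 3.04% of the other cells with one. *Cdk1* UMIs were found in 9 gated cells (2.07%), 2 and 4 in control and 1 and 2 in injury libraries, against 4.58% of the other cells. Of the 33 genes of the S and G2M phases 0 were higher in the gated cells than in the others.

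The share of endothelial cells was compared between conditions. Gated cells made up 3.84% (50 of 1301; exact 95% binomial interval 2.87% to 5.04%) and 12.8% (172 of 1341; 11.1% to 14.7%) of the filtered cells in control libraries 1 and 2. They made up 4.80% (114 of 2377; 3.97% to 5.73%) and 9.11% (98 of 1076; 7.46% to 11%) in injury libraries 1 and 2. These intervals cover counting error only. Averaged over the 2 libraries of a condition, the share came to 8.33% (SD 6.35) in control and to 6.95% (SD 3.05) in injury. The gap of -1.38 percentage points lay well inside the range of the control pair. In both conditions the library numbered 2 had the higher share, and also the higher median depth of gated cells. A two-sided exact permutation test gave p = 1.00, and a design of this size allows no p below 0.333. Leaving out control 2 turned the difference to 3.11 points and leaving out injury 1 to 0.773 points. A share also moves with the number of other cells captured, and fewer endothelial cells cannot be told apart from more of the others.

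To ask whether endothelial genes differ 3 days after nerve crush, the UMIs of the gated cells were summed per library and tested with edgeR's quasi-likelihood test. Of 6241 genes tested, 0 passed a Benjamini-Hochberg adjusted p of 0.05 in either direction (0% of those tested). Without adjustment, 80 genes had a p under 0.05 (1.28%), 35 of them higher (0.561%) and 45 lower (0.721%) after injury. DESeq2 on the same genes called 0 at the adjusted threshold (0%) and 11 at the unadjusted one (0.176%). By CPM, both injury libraries lay above both control libraries for 549 genes (8.80%) and below them for 1204 (19.3%). CPM leaves out the scaling factors (TMM) that the edgeR fit used. These were 1.02 and 1.04 in control and 0.929 and 1.01 in injury libraries 1 and 2. In that fit 49.4% of the genes had a difference above 0. The part of scaling in the counts without overlap, here and below, was not tested. The number of genes passing the adjusted threshold changed with the libraries used. Without injury 1 it stayed at 0. Without control 1, 22 genes passed the adjusted threshold, among them *Lrg1*, *Tmem252* and *Vcam1*, without control 2 25 genes, among them *H2-Eb1*, *Cd74* and *Fabp7*, and without injury 2 only *Ccl21a*. With 1 library left in a condition, that library is assumed to vary like the others. The labels name no animals. The paper's reporting notes describe biological replicates, each a batch of cells pooled from several mice, and do not say which library belongs to which batch. The p-values thus measure the spread between pools, and variation between single mice was not measured.

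The genes below are therefore given as values. Each had an adjusted p of 1.00 (edgeR), and none is called changed. *Mllt3*, for a chromatin reader, had the smallest unadjusted p. It was at 23.8 and 25.3 CPM in control and 75.7 and 61.0 CPM in injury libraries (log2 difference 1.53, SE 0.35), and 83 cells held its 99 UMIs. *Cxcl1*, a chemokine that attracts neutrophils, was at 28.6 and 25.3 CPM against 96.7 and 50.5 (log2 1.56, SE 0.44), from 4 and 13 cells in control and 15 and 16 cells in injury libraries. In the other filtered cells *Cxcl1* was at 302 and 75.8 CPM in control and 230 and 88.4 CPM in injury libraries, so that order was not seen there. *Abca1*, which exports cholesterol, was at 4.77 and 31.9 CPM against 48.3 and 78.4 (log2 1.46, SE 0.51). *Ace*, the angiotensin-converting enzyme of the endothelial surface, was at 14.3 and 18.7 CPM against 42.0 and 33.1 (log2 1.17, SE 0.44), and *Ch25h*, which makes an antiviral oxysterol, at 296 and 133 CPM against 366 and 336 (log2 0.87, SE 0.36). The groups did not overlap for any of these genes, which the rule that named *Mllt3*, *Cxcl1* and *Abca1* required. *Fabp4*, a fatty acid binding protein of capillaries, was at 0 and 7.70 CPM against 63.1 and 24.4 (log2 2.89, SE 0.78), but 1 cell held all 30 UMIs of injury 1. Several of these differences moved with a single library. Without control 2 the log2 difference was 3.74 for *Abca1*, 7.21 for *Fabp4* and 0.33 for *Ch25h*, and without injury 1 it was 0.98 for *Cxcl1*. Without control 1 it was 1.5 for *Ch25h* (adjusted p = 0.0391, edgeR) and 2.56 for *Fabp4* (adjusted p = 0.0106). *Fabp4* also passed with no filter on low counts (adjusted p = 0.00145, edgeR), and without the limits on C1q and *Ptprc* its log2 difference was 0.82.

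Others were lower in both injury libraries. *Rnaset2b* was at 215 and 155 CPM in control and 69.4 and 22.7 CPM in injury libraries (log2 -1.90, SE 0.47), and its near-identical copy *Rnaset2a* at 95.4 and 145 against 56.8 and 19.2, with reads that the counting may have divided between the copies. *Rnaset2b* was also lower in the other filtered cells, at 80.1 and 68.0 CPM in control and 38.4 and 15.1 CPM in injury libraries. *Efnb2*, the arterial ligand ephrin-B2, was at 52.5 and 48.4 CPM against 16.8 and 27.9 (log2 -1.05, SE 0.39). *Usp18*, which damps interferon signalling, was at 124 and 57.2 CPM against 25.2 and 41.8, and *Igfbp3*, a binding protein of insulin-like growth factors, at 124 and 62.7 against 42.0 and 36.6. Control 1 was the highest library for both *Usp18* and *Igfbp3*, and without it their log2 differences were -0.66 and -0.57, while that of *Igfbp3* was -1.57 without control 2. For *Rnaset2b* and *Rnaset2a* they were -2.94 and -2.65 without injury 1 and -1.22 and -0.98 without injury 2. In edgeR *Rnaset2b* passed without control 1 (adjusted p = 0.00867), without control 2 (0.0489) and with no filter on low counts (4.67e-05). *Rnaset2a* passed without control 1 (adjusted p = 0.00328) and with no such filter (0.00451), and *Atxn7* without control 2 (0.0343). The remaining genes of smallest p were *Prpf40b*, *Dpm1*, *Rps18-ps3*, *Mllt11*, *Pan3*, *Rbm4b*, *Atxn7*, *Ogfrl1*, *Tbc1d20*, *Klhl9*, *Dhps* and *Tor1aip1*, lower in both injury libraries, and *Map3k8*, *Atp8b1*, *Tmem255b*, *Slco2b1*, *Mef2d*, *Wbp5* and *Gstt2*, higher in both.

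**Figure D5:**
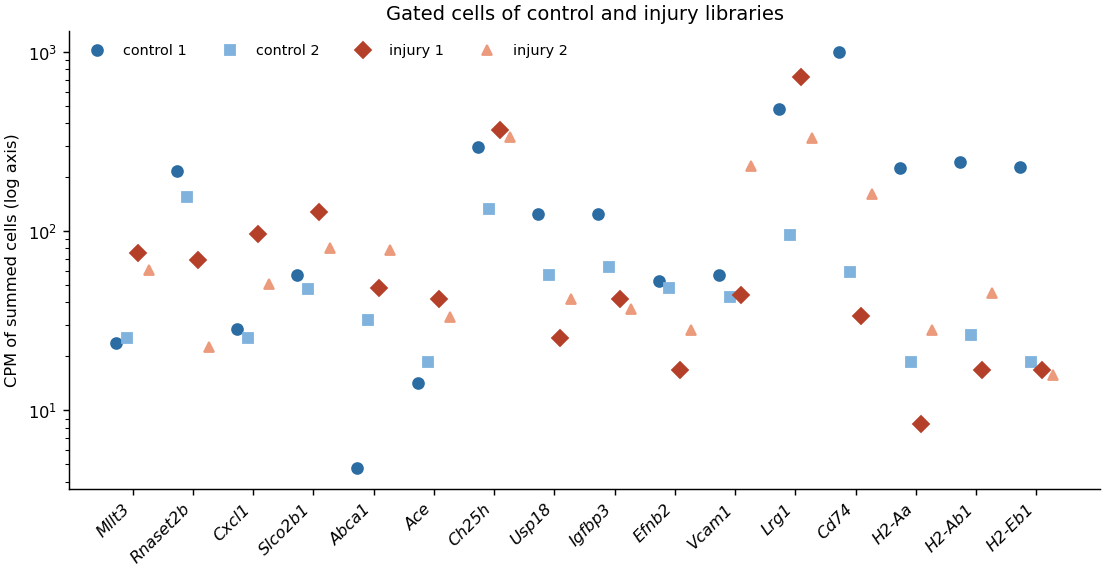
CPM of the summed gated cells in each library (log axis) for genes of small unadjusted p and for genes discussed with them. The 2 control and 2 injury libraries do not overlap for *Mllt3*, *Rnaset2b*, *Cxcl1* or *Ace*, all but *Ace* named by a rule that required this. *Cd74* and the other class II genes are highest in control 1 and *Vcam1* in injury 2.

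No gene of the 26 lists passed the adjusted threshold, so each list is described by its counts and its median log2 difference, beside -0.01 for all genes tested, of which 49.4% had a difference above 0. The 30 identity genes had a median of -0.04, with 12 above 0, and the 28 junction and transport genes tested a median of -0.07, with 10 above 0 and 0 at an unadjusted p under 0.05. For *Cldn5* the levels were 3916 and 3043 CPM in control and 3773 and 2459 CPM in injury libraries, and for *Cdh5* 382 and 466 against 309 and 417. The 37 genes of growth factor receptors and angiogenesis tested had a median of -0.15, with 9 above 0 and 6 below both controls in both injury libraries, against 19.3% of all genes. Tip cell genes, which mark sprouting vessels, had a median of 0.13 over 6 tested. Among them *Esm1* was at 85.8 and 60.5 CPM in control and 105 and 68.0 CPM in injury libraries, with overlapping groups. Arterial, venous and capillary lists had medians of 0.05, -0.26 and -0.17 over 16, 14 and 12 genes tested. Each had 1 gene at an unadjusted p under 0.05, where 1.28% of all genes lay. These were *Efnb2*, *Vcam1* and *Fabp4*. The difference of *Vcam1* was 1.61 on the log2 scale, and 0.04 without injury 2, and it passed without control 1 (adjusted p = 0.00760, edgeR) and with no filter on low counts (0.00320).

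Inflammatory lists pointed in different directions by their medians. All 10 NF-kB response genes tested had a difference above 0, with a median of 0.50 and 3 above both controls in both injury libraries, where 8.80% of all genes lay. *Nfkbia*, the inhibitor that NF-kB itself induces, was at 982 and 905 CPM in control and 1469 and 1171 CPM in injury libraries, and *Ier3* at 1755 and 841 against 2146 and 1117. Of 34 interferon response genes tested 4 had a difference above 0, and the median was -0.28, with 9 below both controls in both injury libraries, where 19.3% of all genes lay. The interferon list as a whole summed to 14270 and 9268 CPM in control and 10359 and 9710 CPM in injury libraries. By this sum control 1 was the highest library and control 2 the lowest. The acute phase and IL-6 list had a median of 0.15 over 13 tested. *Socs3*, a feedback inhibitor of that pathway, was at 811 and 444 CPM in control and 940 and 579 CPM in injury libraries, and *Lrg1* at 477 and 95.7 against 727 and 331. For *Lrg1* as for *Socs3*, *Ier3* and *Fos*, control 1 lay above injury 2. Leukocyte adhesion genes had a median of 0.12 over 13 tested, cytokines and chemokines -0.16 over 8, vasoactive genes -0.03 over 21, immediate early and heat shock genes 0.06 over 24, basement membrane genes 0.05 over 27, lipid genes 0.19 over 14, S and G2M genes 0.21 over 10 and lymphatic genes 0.33 over 5. Some genes stand in more than 1 list, as *Vcam1* does in 3.

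Antigen presentation was set apart by control 1. All 14 genes of MHC class I and II tested had a difference below 0, with a median of -0.43, and 2 were lower in both injury than in both control libraries, as were 19.3% of all genes. *Cd74*, the chaperone of class II molecules, was at 997 and 59.4 CPM in control and 33.6 and 160 CPM in injury libraries. In control 1, 19 of the 50 gated cells had a *Cd74* UMI, and 1 cell held 96 of the 209 UMIs. In injury 2, 1 cell held 72 of 92. *H2-Aa* was at 224, 18.7, 8.41 and 27.9 CPM and *H2-Ab1* at 243, 26.4, 16.8 and 45.3 CPM in the same order. The other filtered cells of control 1 were also the richest in *Cd74*, at 15609 CPM against 3259 in control 2 and 7503 and 3464 in injury libraries 1 and 2, and the part of RNA from those cells was not tested.

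Whether the effect of injury in endothelial cells differed from that in the other filtered cells was tested as an interaction with the library as a block. Of 12289 genes tested, 3 passed an adjusted p of 0.05 (0.0244%), all with a lower injury effect in endothelial cells, and 379 an unadjusted one (3.08%). *Nts* was at 33.4 and 50.6 CPM in control and 0 and 22.7 CPM in injury libraries in gated cells, and at 1.47 and 0.570 against 1.85 and 20.2 in the other cells (log2 difference of the effects -5.47, SE 0.80, adjusted p = 3.18e-04, edgeR). All of its UMIs in gated cells came from the lymphatic cells above, of which injury 1 held 0, and *Nts* was not called with mural cells as comparator, without control 2 or without injury 2. *Hba-a2* (log2 -5.81, SE 0.70, adjusted p = 1.04e-05) and *Hbb-bs* (log2 -3.35, SE 0.50, adjusted p = 3.18e-04), both hemoglobin genes, had an adjusted p of 1.00 without the single hemoglobin-rich cell of control 2. Without the mixed barcodes 15 genes passed, 5 higher and 10 lower. Among them were *Nts* (adjusted p = 2.98e-10, edgeR), *Lrg1*, *Cd74*, *H2-Eb1*, *Gimap4* and *Fabp4*.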

How the data were processed

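Single cell RNA-seq of dissociated mouse DRG (10x Genomics 3' libraries) was analysed in 2 control and 2 injury libraries. The authors deposited whole-number UMI counts made with Cell Ranger (version 2.1.0 in the methods, genome mm10 in the submitters' processing notes), and their later steps used Partek Flow 9.0.20.0417. The cell filter is that of the methods, and the deposited barcodes include cells outside it. Total UMIs per library ranged from 5585909 to 11210875, which with 50 to 172 gated cells limits the precision of low genes. Binomial intervals are exact (Clopper-Pearson).

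UMIs of the gated cells were summed per library and tested with edgeR 4.0.16 in R 4.3.3 (quasi-likelihood test, filterByExpr, TMM, Benjamini-Hochberg adjustment, no block), with DESeq2 1.42.0 as an alternative. The study tested cells with an adjusted p of 0.05 and a log2 fold change of 2. The interaction used 8 sums with a library term. Shares of cells with a UMI were also given for thinning to 1000 UMIs. Clusters came from scanpy 1.11.5 (2000 variable genes, 20 components, 15 neighbours, Leiden resolution 0.5). Folds over other cells compare mean CPM over libraries, and folds between cell groups or clusters compare cells summed over libraries. Doublets were marked with Scrublet and kept. Scripts were tested on simulated data.

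The members and the 26 gene lists were chosen with earlier results of these data known. Named genes were the gate genes, the 4 of each list with the highest mean CPM, list members with an unadjusted p under 0.05, the 25 genes of smallest p without overlap of the groups, interaction calls, the 15 largest ratios to other cells and 5 leading genes per cluster. Other genes are named as examples chosen after their values were seen. Alternatives were other gate minimums, no limits, no mixed barcodes, other normalization and filters, the replicate number as a block and leaving out each library. Results for a few genes are not reported here.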

Additional observations from a re-analysis of the deposited data

Results flagged for a closer look

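The injury effect of 3 genes differed between the gated endothelial cells and the other filtered cells in the interaction test of edgeR. The log2 difference of the effects was -5.81 for *Hba-a2*, -3.35 for *Hbb-bs* and -5.47 for *Nts*. For *Hba-a2*, 94 of the 106 UMIs of control 2 stood in 1 gated cell, and for *Hbb-bs* 258 of 281. Without that cell *Nts* alone passed, with an adjusted p of 6.08e-04. *Nts* was not called with mural cells as comparator, without control 2 or without injury 2.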

How the results depend on the processing

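The difference in endothelial share kept its sign under the other gates, without ceilings, without the cell filter and without mixed barcodes, at -1.59 to -0.599 points, the latter without the cell filter, and ranged from -5.87 to 3.11 points with a library left out. In injury against control 0 genes passed in edgeR under the other gates, cell filters, normalization and without mixed barcodes or the hemoglobin cell, and 0 to 25 with a library left out. With no filter on low counts 14 genes passed, and 10 when the hemoglobin cell was also left out (an alternative added after seeing the data, as are the other fits without that cell and the interaction without mixed barcodes). Of the 14 genes, *Cd74*, *H2-Eb1*, *H2-Aa* and *H2-Ab1* were highest in control 1 by CPM. Others among them were *Hba-a2*, *Hbb-bs*, *Hba-a1*, *Ubd*, *Rnaset2a*, *Rnaset2b* and *Ccl21a*, lower after injury, and *Fabp4* and *Vcam1*, higher. The cause of the gain was not tested. In the interaction 3 genes passed, against 2 with mural cells as comparator, 7 with no filter, 1 without the hemoglobin cell, 15 without mixed barcodes and 5 to 21 with a library left out. Resolutions of 0.3 and 1 gave 3 and 9 clusters. Of 459 refits over 31 single genes, 443 kept direction and side of the threshold, 15 in 6 genes newly passed it, and *Mllt11* changed sign, to a log2 difference of 1.38 without the cell filter. The 31 genes were named by their unadjusted p in these data, and the refits use largely the same cells, so they are no independent check. With the replicate number as a block 0 genes passed and 151 had an unadjusted p under 0.05, against 80 without it. The deviations of the libraries with the same number correlated at 0.162 over 6241 genes, and the labels tie the numbers to no shared animal or day. The share of gated cells and the values of genes with few UMIs, in control 1 above all, are limited by the number of cells.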

Other observations

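*Fos* followed the replicate number of the libraries more than the condition, with 7121 and 5932 CPM in the libraries numbered 1 and 2917 and 3963 in those numbered 2. *Ubd*, an interferon-inducible ubiquitin-like gene, had 23 of its 26 UMIs in 1 cell of control 1.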
